A study of Hordeum vulgare with 18 samples.

Results

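The 200 steadiest gene features of barley spikes across development and genotype are described here. They were chosen from 26066 features of a table of normalized read counts. The 24211 features with identifiers beginning with MLOC were narrowed to the 9527 whose mean normalized count over all 18 libraries was from 500 to 5000. For each of these the coefficient of variation (CV), the standard deviation divided by the mean, was computed over the 18 libraries, and the 200 features with the lowest CV were kept. The values that chose the genes were therefore the same normalized counts that are described below, so a small CV, a small stage change and a small genotype difference were built into the choice. All figures on the 200 genes are descriptions of how they vary, and no test of them is offered. Readings in libraries that had no part in choosing a list are given separately.

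Transcripts were measured by mRNA sequencing of field-grown barley, Hordeum vulgare, of the cultivar Golden Promise, and every sample is labelled as whole spike, while the design text of the series speaks of grains. The groups were an azygous control, a line without a copy of the transgene, and 2 transgenic lines with silenced HvCKX1, KD-CKX1 5.8 (line 5.8) and KD-CKX1 17_10 (line 17_10). Each genotype was sampled at BBCH stage 49, when the first awns show, and at stage 59, when the ear has fully emerged, with 3 libraries, described as biological replicates, in each of the 6 groups. All plots received mineral nitrogen, a herbicide and fungicides, so these did not set the groups apart. The sources used here give neither the promoter and form of the silencing construct nor whether 1 library held spikes of 1 plant or several. HvCKX1 encodes a cytokinin oxidase/dehydrogenase, which breaks down cytokinins, hormones that promote cell division in meristems and developing grain.

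Steady transcripts have 2 common uses. Genes whose level holds across tissues and conditions serve as internal references, against which the level of other genes is set in quantitative PCR, and they show whether the scaling of a sequencing table has put its libraries on a common footing. In plants such references are often sought among genes for basic cell functions such as protein turnover, translation, vesicle traffic and RNA processing. The spike at heading is a demanding setting for them, because anthers, ovaries, glumes and awns mature at different rates while the ear emerges. The identifiers could not be joined to names (0 of 26066 matched the 58438 genes of the reference table), so neither the functions of the 200 genes nor the level of HvCKX1 can be given, and no sequence is shown. In whole spikes, fewer cells of a type and less RNA per cell cannot be told apart.

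The recovered depth ran from 24459652 to 106034579 reads per library. Together the 200 genes took from 0.892% (line 5.8, stage 49, replicate 3) to 1.1% (control, stage 59, replicate 3) of a library's normalized counts. Each gene rested on at least 263 reads in every library, and at most on 9502. Line 5.8 stage 49 replicate 2 stood apart from the other libraries, and the main results that rest on it are also given without it.

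The CVs of the 200 genes ran from 3.87% to 7.21%, with a median of 6.38%, where the 9527 features of the same range of levels ran from 3.87% to 386% with a median of 23%. MLOC_6261 and MLOC_14760 were just inside, at 7.193% and 7.209%, and MLOC_72634 and MLOC_51590 just outside, at 7.212% and 7.235%. The highest library exceeded the lowest by 1.15 to 1.39 times in the 200 genes (median 1.26), against a median of 2.28 times in the range. In 21 genes every library lay within 0.1 of the gene's own median, as a share of it, and in 195 genes within 0.2.

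**Figure D1:**
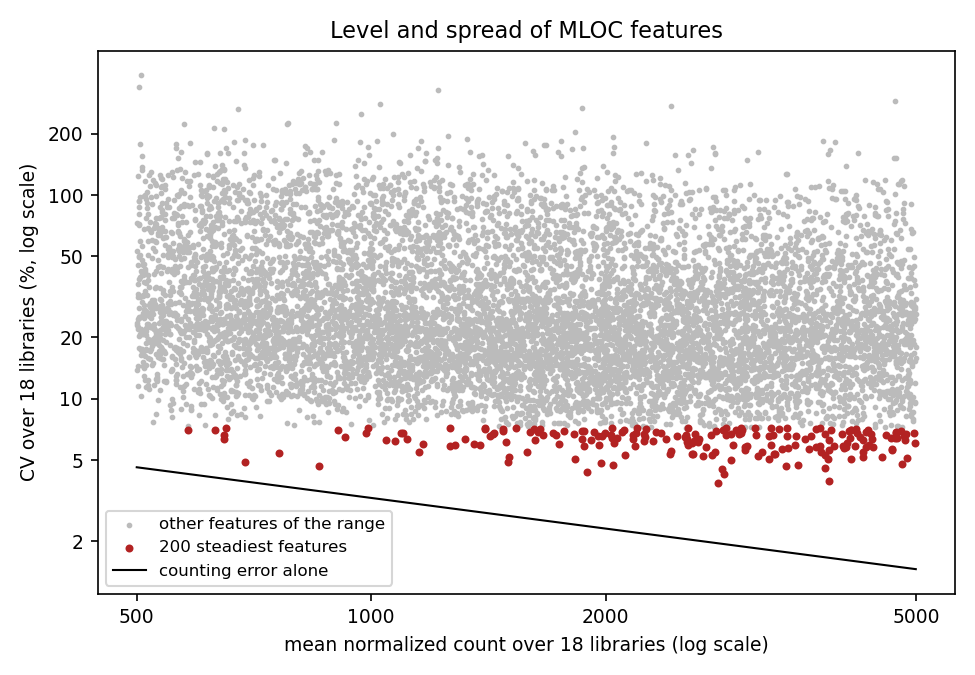
Mean normalized count over the 18 libraries (x axis, log scale) against the CV over the same libraries in percent (y axis, log scale) for the 9527 MLOC features of the range, with the 200 steadiest in red and the CV that counting error alone would give as a line. The red points lie between 3.87% and 7.21%, above the line, and thin out toward the lowest means.

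The list leaned toward features with high counts. Of the features with a mean from 500 to below 1000 normalized counts, 12 of 2632 (0.456%) were kept, against 49 of 3181 (1.54%) from 1000 to below 2000 and 41 of 808 (5.07%) from 4000 up. Normalized counts are not divided by gene length, so these means do not rank the genes by transcript number. The lowest mean belonged to MLOC_37948, at 581 ± 41.1 normalized counts (SD over 18 libraries), and the highest to MLOC_27537, at 4983 ± 301. Deeper counts give a smaller counting error, which sets a floor under the CV. From the recovered reads that floor was 1.46% to 4.28% in the 200 genes (median 1.99%). Whether it made the list lean toward high counts was not tested.

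Counting error made up 4.63% to 64.9% of the variance of the 200 genes, with a median of 10.7%, and the rest was spread between libraries beyond read sampling. In the whole range the median was 1.24%. The extreme case was MLOC_22173. Its level was 703, 686 and 694 in control libraries, 664, 734 and 704 in those of line 17_10 and 699, 705 and 651 in those of line 5.8 at stage 49. At stage 59 it was 699, 753 and 739.6 in control libraries, 641, 659.5 and 632 in those of line 17_10 and 669, 666 and 678 in those of line 5.8. Its CV was 4.88%, of which 2.89% was left after counting error was taken out, the smallest of the 200 genes. Within that narrow span, the 3 control libraries of stage 59 were all above the 6 libraries of the lines at that stage. At the other end MLOC_64294 kept 6.98% after the same step. When the features of the range were ranked by the CV beyond counting error, 192 of the 200 genes were chosen again.

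MLOC_34932 had the lowest CV, 3.87%. Its normalized counts at stage 49 were 2760.0, 2856 and 2910.4 in control libraries, 2649.6, 2783 and 2747 in those of line 17_10 and 2752, 2909 and 2569 in those of line 5.8. At stage 59 they were 2723, 2969 and 2759 in control libraries, 2842, 2620.3 and 2859.8 in those of line 17_10 and 2812, 2922 and 2784 in those of line 5.8. The lowest library was replicate 3 of line 5.8 at stage 49 and the highest replicate 2 of the control at stage 59, so the extremes came from different stages and genotypes. The mean was 2790.3 ± 108 (SD, n = 18).

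MLOC_7569 followed at 3.93% around a mean of 3863 ± 152. Its stage 49 values were 4044, 3854 and 3929 in control libraries, 3745, 4034 and 3919.9 in those of line 17_10 and 4068, 3998 and 3715 in those of line 5.8. Its stage 59 values were 3783, 3782 and 3784 in control libraries, 3856, 4051 and 3789 in those of line 17_10 and 3524, 3985 and 3672 in those of line 5.8. The stages overlapped widely, and the 3 control libraries of stage 59 lay closest together of its groups.

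In MLOC_4592 (CV 4.29%, mean 2839 ± 122) the stage 49 values were 2645, 2795 and 2577 in control libraries, 2641, 2873 and 2806 in those of line 17_10 and 2931, 2895 and 2844 in those of line 5.8. At stage 59 the gene stood at 2767, 2952 and 2928 in control libraries, 2887, 2804 and 3042 in those of line 17_10 and 2938, 2837 and 2943 in those of line 5.8. Stage accounted for 26.1% of its variance on the log2 scale, the most among the 5 steadiest genes, and its lowest libraries were replicates 1 and 3 of the control and replicate 1 of line 17_10, all at stage 49.

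MLOC_38273 (CV 4.37%, mean 1894 ± 82.7) had 1944, 1737 and 1785 in control libraries, 1779.9, 1939 and 1955 in those of line 17_10 and 1842, 1814 and 1995 in those of line 5.8 at stage 49. Its stage 59 levels were 1896, 1971 and 2054 in control libraries, 1836, 1922 and 1877 in those of line 17_10 and 1939.6, 1879 and 1927 in those of line 5.8. MLOC_61654 (CV 4.53%, mean 2818 ± 128) had 2907, 2770.1 and 2839 in control libraries, 2597, 2839.6 and 2844 in those of line 17_10 and 2795, 2986 and 2724 in those of line 5.8 at stage 49. At stage 59 it read 2849.7, 2755 and 2784 in control libraries, 2659, 2596 and 2907 in those of line 17_10 and 2958, 3083 and 2831 in those of line 5.8. In the latter gene stage held 0.232% of the variance and genotype 26.5%, and its highest library was of line 5.8 and its lowest of line 17_10.

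A ratio of 2 genes in the same library does not depend on the size factors. Over the 18 libraries the 10 ratios among these 5 genes had CVs from 4.06% (MLOC_34932 over MLOC_61654) to 6.62% (MLOC_7569 over MLOC_4592). The next lowest ratio, MLOC_4592 over MLOC_38273, had 4.9%, so all ratios but the lowest varied more than any of the 5 genes did alone.

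**Figure D2:**
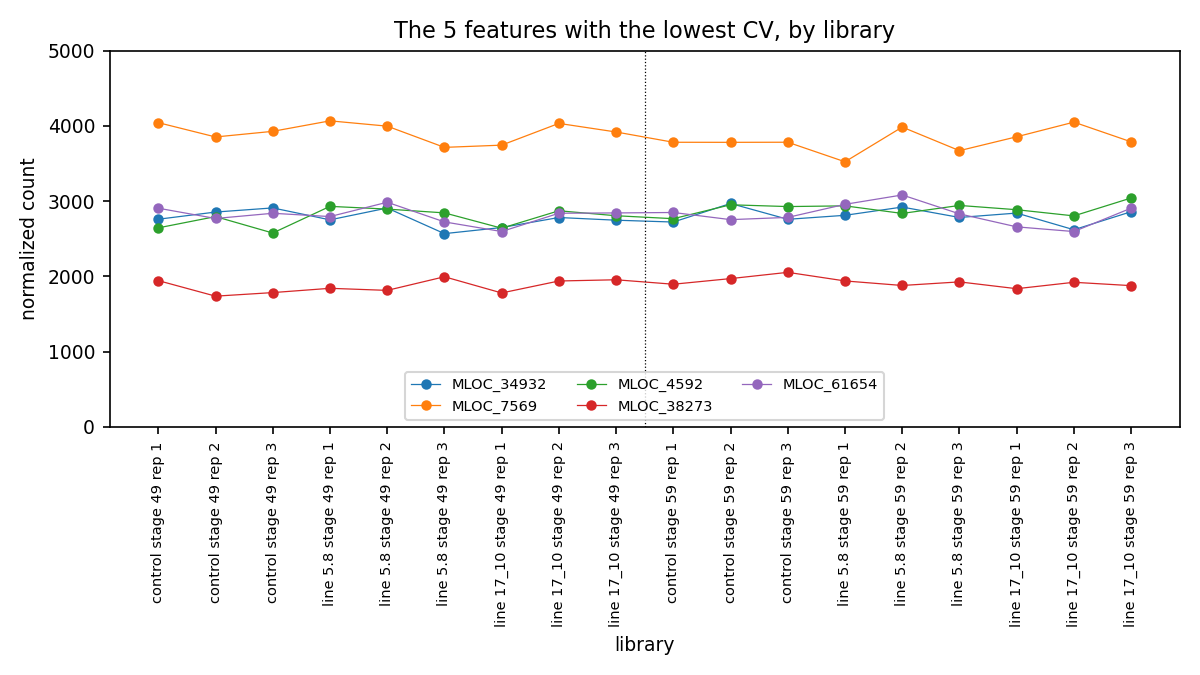
Normalized counts (y axis, from 0) of the 5 genes with the lowest CV in each of the 18 libraries (x axis), with stage 49 left and stage 59 right of the dotted line; each point is 1 library. The lines run nearly level, MLOC_7569 around 3863, MLOC_38273 around 1894 and the 3 others close to each other between them.

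The 2 stages were compared within each genotype, to see how far these genes held while the ear emerged. Of the 20874 features tested, 45% were called in the control (22.1% higher and 22.9% lower at stage 59), 50.5% in line 5.8 (24.2% and 26.3%) and 45.3% in line 17_10 (21.5% and 23.8%), by limma with a Benjamini-Hochberg adjusted p below 0.05. All 200 genes passed the filter on low values. Of them 1 was called in the control, lower at stage 59, 3 in line 5.8, of which 1 was higher and 2 lower, and 0 in line 17_10. With no adjustment, 4 of them and 52.3% of all features had a p below 0.05 in that line. The choice used the same libraries, so nothing is read from these counts. The median size of the stage change was 0.06 on the log2 scale for both control and line 17_10, and 0.07 for line 5.8. In the 9527 features of the range it was 0.40, 0.40 and 0.46 in the same order. The largest changes among the 200 genes were -0.21 and 0.19 in the control, -0.23 and 0.20 in line 5.8, and -0.18 and 0.20 in line 17_10. By direction, 55 genes (27.5%) had a higher mean log2 level at stage 59 in all 3 genotypes, against 40.8% of the range. A lower one was found in 34 (17%), against 37.6%, while 111 (55.5%) were split between genotypes, against 21.7%. The choice kept genes with small stage changes, so nothing is read from these directions.

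Among falls, MLOC_15650 changed most in the mean over the genotypes. In the control it went from 3119, 3241 and 3121 normalized counts at stage 49 to 2739, 2735 and 2707 at stage 59. These sets did not overlap, and the log2 change was -0.21 (SE 0.076), the 1 call in the control. DESeq2 and edgeR called this fall too. Limma under TMM scaling did not, with an adjusted p of 0.056. Line 17_10 had 2974, 3254 and 3250.3 before and 2873, 2937 and 3059 after, with overlap. Line 5.8 had 3130.4, 3285 and 2764 before and 2803, 2877 and 2829 after, also with overlap. The next was MLOC_76972, at 677 ± 39.1 over the 9 libraries of stage 49 and 618 ± 21.6 over the 9 of stage 59.

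Higher levels at stage 59 were most marked in MLOC_64294 and MLOC_4715. MLOC_64294 stood at 3594, 3259 and 3617 in control libraries, 3248, 3693 and 3726 in those of line 17_10 and 3921, 3563 and 3526 in those of line 5.8 at stage 49. At stage 59 it stood at 3977, 3952 and 3899.7 in control libraries, 4111, 3628 and 4042 in those of line 17_10 and 3808, 4013 and 4166 in those of line 5.8. The stages did not overlap in the control, and in each line 1 library of one stage reached into the range of the other.

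MLOC_4715 had the largest share of variance between stages, 60.1%, against a median of 8.1% in the 200 genes and 48.7% in the range. In line 5.8 it went from 2945, 2969.9 and 2799.6 to 3172, 3548 and 3314, without overlap (log2 change 0.20, SE 0.073). That rise was called by limma as deposited and under TMM scaling, by edgeR and by DESeq2. Line 17_10 had 2826, 3002 and 2885 at stage 49 and 3144, 3365 and 3180.1 at stage 59, again without overlap. The control had 3068, 3178 and 3007 and then 3053, 3339 and 3350.2, with overlap. The 2 other genes called in line 5.8, MLOC_16093 and MLOC_59182, were lower at stage 59. They were named after their values were seen, because the count is small. Both were also called by DESeq2, but neither by limma under TMM scaling nor by edgeR, which also used TMM scaling. MLOC_16093 went from 3012, 2985 and 2691 to 2674, 2438 and 2385, and MLOC_59182 from 1661, 1583 and 1589.6 to 1423, 1349 and 1338. Whether the stage change of any of these genes differed between genotypes was not tested.

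Over all genotypes, 0 of the 200 genes had 9 libraries of stage 59 wholly above or below the 9 of stage 49. Of all tested features 30% did, 14.9% higher and 15.1% lower, and of the 9527 features of the range 32.2%. The counts of calls rested on tool and scaling. Under TMM scaling of the recovered reads 1, 6 and 7 genes were called in control, line 5.8 and line 17_10, and all were higher at stage 59, against 23%, 25.6% and 23.8% called higher among all features. The median log2 stage change of the 200 genes was 0.03 in the control under TMM against 0.01 as deposited, 0.06 against 0.02 for line 17_10, and 0.05 against 0.02 for line 5.8. For control, line 5.8 and line 17_10 in turn, DESeq2 on recovered reads called 6, 14 and 7 genes, where it called 49.2%, 53.7% and 49% of all features. The quasi-likelihood test of edgeR called 2, 5 and 1, against 45.3%, 50.7% and 45.1%, and its 5 calls in line 5.8 were all higher at stage 59.

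Leaving out single libraries also moved these small counts in the limma fit. Of all features, these fits called 37.1% to 50.5% in the control, 43.9% to 51% in line 5.8 and 36.9% to 50.7% in line 17_10. The control count was 0 without control stage 49 replicate 1 or 3 or any control library of stage 59, and 2 without line 5.8 stage 59 replicate 1. Without control stage 49 replicate 2 the 1 call was a higher level at stage 59. The line 5.8 count was 5 without its stage 59 replicate 1, 0 without its stage 59 replicate 3, and 1 without its stage 59 replicate 2, control stage 49 replicate 1, control stage 59 replicate 2 or line 17_10 stage 49 replicate 3. It was 2 without line 5.8 stage 49 replicate 2, both higher. In line 17_10 it was 1 without its stage 59 replicate 1 or 2, line 5.8 stage 49 replicate 2 or line 5.8 stage 59 replicate 1.

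**Figure D3:**
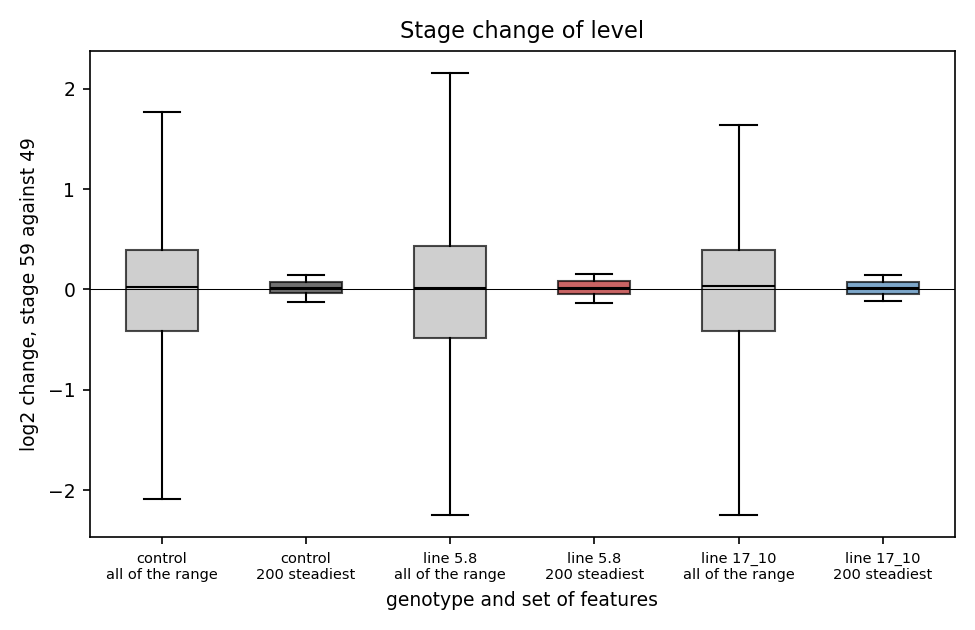
Log2 change of level from stage 49 to stage 59 (y axis) in each genotype for all 9527 features of the range (grey) and the 200 steadiest genes (coloured); boxes span the quartiles with the median as a line, and whiskers run from percentile 5 to percentile 95. The coloured boxes hug 0, against a median size of 0.40 for the range in the control.

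Each line was set beside the control to see how far silencing of HvCKX1 went with a shift of these genes. None was called in any of the 4 comparisons by limma (0 of 200 each) or by edgeR's quasi-likelihood test (0 each). Over all tested features at stage 49, limma called 0.431% for line 5.8 and 0.211% for line 17_10, and at stage 59 it called 0.321% and 0.206%. The shares by edgeR were 0.359% and 0.158%, then 0.287% and 0.168%. At stage 49 an unadjusted limma p below 0.05 was reached in line 5.8 by 2 genes, against 14.9% of all features, and in line 17_10 by 0, against 1.6%. At stage 59 it was reached by 3 genes in each line, against 16.4% in line 5.8 and 6.39% in line 17_10. DESeq2 called 1 gene, lower in line 5.8 at stage 49, where it called 1.67% of all features. In the 3 other comparisons it called 0 genes, against 0.364% in line 17_10 at stage 49, and at stage 59 against 2.4% in line 5.8 and 0.901% in the other line. The shares over all features rested on single libraries. Without line 5.8 stage 59 replicate 1, limma called 1 of the 200 genes in line 5.8 at stage 59, where it then called 15.6% of all features, and the share for line 17_10 rose to 0.34%. Without control stage 59 replicate 3 the shares at that stage were 0.881% and 0.757%, and without line 5.8 stage 59 replicate 2 the first was 0.206%. At stage 49 the share for line 5.8 was 3.69% without control replicate 2, and that for line 17_10 was 0.134% or 0.139% without its own replicate 1 or 3. Without line 5.8 stage 49 replicate 2, 6.33% of all features reached the unadjusted threshold in that line at stage 49, in place of 14.9%. For line 5.8 at stage 49, where deviations of same-numbered libraries were positively correlated, a fit of the 2 groups alone called 0.12% of all features. With the replicate number as a block that fit called 0%. The share with an unadjusted limma p below 0.05 went from 5.32% to 19.7% when the block was added. The choice of the 200 genes used all these libraries too, so nothing is read from the counts. Line 5.8 and line 17_10 were compared with the same control libraries.

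The median size of the difference from the control was 0.05 on the log2 scale in line 5.8 at both stages, and 0.03 and 0.05 in line 17_10 at stages 49 and 59. For the range the medians were 0.20 and 0.19 in line 5.8 and 0.07 and 0.12 in line 17_10. The largest fall in line 5.8 over both stages was in MLOC_12212. It had 1395, 1609 and 1475 in the control and 1441, 1279.5 and 1355 in line 5.8 at stage 49, and 1513, 1646 and 1564 against 1435, 1283 and 1439 at stage 59. The groups overlapped at stage 49 and were apart at stage 59, where the log2 difference was -0.19 (SE 0.086). In line 17_10 it had 1485, 1587 and 1496 and then 1533, 1536 and 1502. Genotype held 55.6% of its variance, the highest share in the list, against a median of 9.54%.

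The largest rise in line 5.8 was in MLOC_37761, with 3901, 3576 and 3774 in the control and 4161, 4201 and 4007 in line 5.8 at stage 49. Those libraries did not overlap. At stage 59 they did, with 3713, 3529 and 3920.5 and 3739, 4158 and 4159.8. In line 17_10 the largest rise was in MLOC_61642. Its stage 59 values were 1437, 1281 and 1484 against 1214, 1206 and 1294 in the control, with overlap, and at stage 49 1221, 1195 and 1288 against 1229, 1263 and 1093. MLOC_5492 was the largest fall there, with 3043, 3349.9 and 3102 against 3475, 3509.8 and 3465 at stage 49, without overlap, and 3117, 3065 and 3720.2 against 3326, 3743 and 3615 at stage 59, with overlap.

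Most of what variance remained lay among libraries of 1 group. The spread within groups held a median of 63% of the variance of the 200 genes on the log2 scale, against 32.6% in the range. Without line 5.8 stage 49 replicate 2 the median of the 200 genes was 61.1%. In 153 genes (76.5%) it held over 50%, against 27.9% of the range. The choice kept genes with small stage and genotype differences. With 3 libraries in each of 6 groups, a gene without group differences also has most of its variance within groups. Nothing is therefore read from these shares. MLOC_34755 was the extreme, with 99.1% within groups. In it line 5.8 at stage 49 ran at 1616, 1320.2 and 1348 and at stage 59 at 1278, 1429.8 and 1514. The group means of this gene were nearly level, from 1407 to 1431. Within groups, the median CV of the 200 genes over 3 libraries ran from 4.28% in the control at stage 59 to 6.05% in line 5.8 at stage 49. In the range it ran from 7.48% in line 17_10 at stage 49 to 16.7% in line 5.8 at stage 49.

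The 200 genes shared a weak movement from library to library, with a median correlation of 0.155 between pairs of them over the 18 libraries, which share their size factors. The first principal component of their log2 levels held 20.3% of the variance. The median of their log2 deviations, each taken from the gene's own median over the 18 libraries, was lowest in line 17_10 stage 49 replicate 1 at -0.07, where 26 of 200 genes were above their median. It was highest in line 17_10 stage 49 replicate 2 at 0.05, where 151 were above. These 2 libraries belong to 1 group. The next lowest were line 5.8 stage 49 replicate 3 at -0.05 and line 5.8 stage 59 replicate 1 at -0.04, and the next highest control stage 59 replicate 3 at 0.04. The medians of the whole range in the same libraries were -0.026, 0.0017, -0.021, -0.024 and 0.022, in the order named. With the median deviation of the 200 genes taken out of each library, the median CV went from 6.38% to 5.84%, and 169 of 200 genes had a lower CV. The same genes set and received that step, so it is a description only. What moved the libraries was not tested.

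Line 5.8 stage 49 replicate 2 differed in kind. Its median deviation was -0.0002, yet the deviations of the 200 genes had an SD of 0.129 there, the widest of the 18 libraries, against 0.0621 to 0.0944 in the others. It held the largest deviation of 40 of the 200 genes, and of 36.4% of the range. In MLOC_12824 it read 3109.6, where the other 2 libraries of the group had 3763 and 3797. In MLOC_10030 it read 2099 against 2593 and 2396. These were the 2 widest single-library deviations of the list, -0.32 and -0.31 on the log2 scale. Without this library the rule kept 143 of the 200 genes, and the median CV of the 200 was 6.12%. Leaving out any of the 17 other libraries kept from 174 to 190 of them. In all 18 such lists 134 genes were present.

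**Figure D4:**
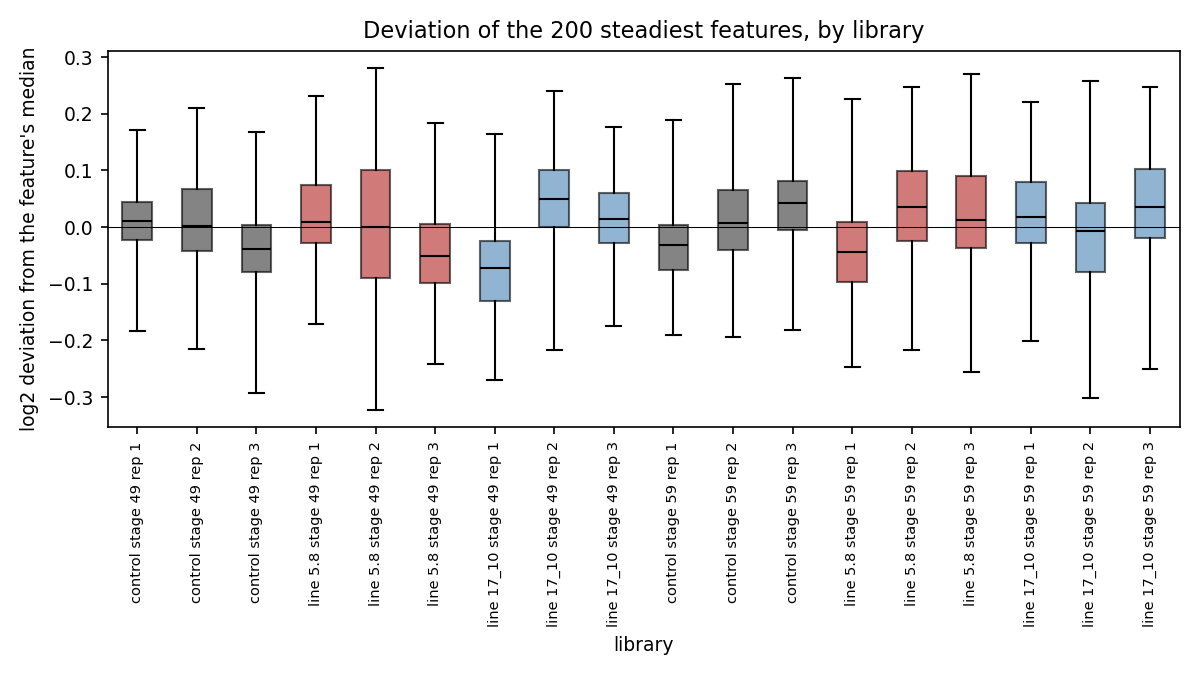
Log2 deviation of the 200 steadiest genes from their own median over the 18 libraries (y axis) in each library (x axis), with control in grey, line 5.8 in red and line 17_10 in blue; boxes span the quartiles with the median as a line and whiskers the full range. Line 17_10 stage 49 replicate 1 sits lowest, with a median of -0.07, and line 5.8 stage 49 replicate 2 has the tallest box, with quartiles at -0.089 and 0.1.

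How steady such genes are in libraries that did not choose them was read by repeating the rule on part of the study. A list of 200 chosen on the 12 libraries of the lines had a median CV of 6.26% in the 6 control libraries, which span both stages. All MLOC features that were in the same range of means had a median of 20.1% there. The list chosen without line 17_10 read 7.01% in that line, against 19.1%. The list chosen without line 5.8 read 9.63% in it, against 26.4%, with an upper quartile of 14.9%. Every gene of the first 2 lists was below the median of its range, as were 198 of 200 of the list read in line 5.8. The highest CV read was 17.6% for the control, 13.9% for line 17_10 and 36.4% for line 5.8. The median ratio of the highest to the lowest library was 1.17, 1.2 and 1.29 in control, line 17_10 and line 5.8.

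With line 5.8 stage 49 replicate 2 left out of choice and reading alike, the medians were 6.65% for the control, 6.59% for line 17_10 and 7.97% for line 5.8. For line 5.8 the median of the range was then 22.8% and the highest CV of the list 32.4%. Rank was read with all 18 libraries in use, among 9505 features for the control, 9552 for line 17_10 and 9528 for line 5.8. Of each list, 57 genes were among the 200 steadiest of the control, 26 among those of line 17_10 and 43 among those of line 5.8 when those 6 libraries were ranked alone. The lists chosen on the 6 libraries of 1 genotype shared 40 genes for control and line 5.8 and 24 for control and line 17_10, and those of the lines shared 17, each out of 200. In all 3 there were 6.

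**Figure D5:**
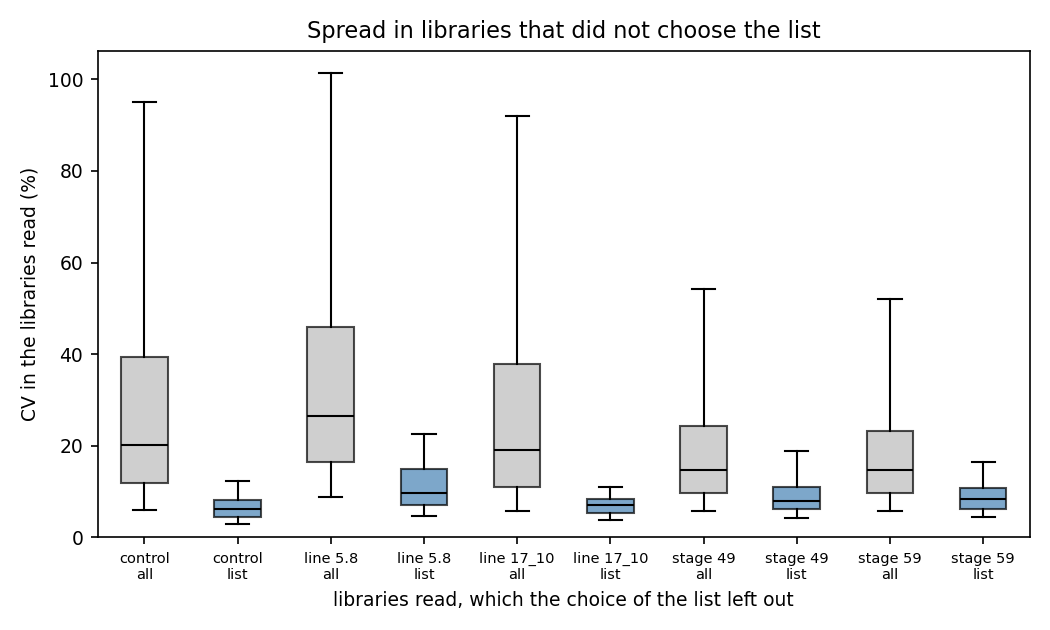
CV in percent (y axis, from 0) in the libraries that a list did not use, named on the x axis, for the list of 200 chosen on the remaining libraries (blue) and for all MLOC features in the same range of means (grey); boxes span the quartiles with the median as a line, and whiskers run from percentile 5 to percentile 95. The blue medians are 6.26%, 9.63% and 7.01% for the genotypes and 7.91% and 8.35% for the stages, all below the grey ones.

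A single library can be read in the same way, with the list chosen on the 17 others. Between 72% and 94% of such a list lay within 10% of its mean over those 17 in 17 of the libraries, where the range had 24.1% to 39.3%. In line 5.8 stage 49 replicate 2 it was 45%, against 17.8% of the range, and the ratio of that library to the mean of the others ran from 0.609 to 2.25. In all readings of libraries left out of a list the size factors were used as deposited. The sources used here do not say whether they were computed from all libraries at once.

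The choice of measure and scaling changed the list as follows. The SD of log2 values chose 192 of the 200 genes again, TMM scaling 167, the ratio of highest to lowest library 156, and a wider range of means from 250 to 10000 chose 150. The median absolute deviation over the median, which gives little weight to the size of extreme deviations, chose 99. Scaling to the library total chose 85, and under it the median CV of the 200 genes was 8.21%. Admitting the 12 EPlHVUG features of the range added 0 of them to the list.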

How the data were processed

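The deposited signal was 1 table of gene counts, each divided by its library's size factor from DESeq, per the labels. Libraries came from a stranded mRNA kit. STAR 2.4.2a, Subread 1.5.2 and DESeq2 are named in the submitters' processing notes, and what each was used for is not stated. The sources used here give no genome build, annotation, strand setting or treatment of multiply aligned reads, so reads of near-identical or overlapping genes may have been split or lost. Size factors set levels relative to the rest of each library, so a change in total RNA leaves no trace.

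Within each library 100% of values were whole multiples of the smallest value above 0, at a tolerance of 0.001 reads, which gave back the whole reads. Counting error was taken as Poisson error of these reads; it leaves out PCR copies. CVs used normalized counts. Fits used log2(normalized count + 1), which understates changes of low genes, in limma 3.58.1 (R 4.3.3) with 6 group means and a mean-variance trend over features with at least 10 normalized counts in at least 3 libraries. The labels do not say that libraries came from separate plants, so p-values measure the spread between these libraries. They were two-sided and adjusted by the Benjamini-Hochberg method over all 20874 features. SE is limma's moderated standard error. edgeR 4.0.16, with TMM scaling, and DESeq2 1.42.0, with size factors of its own, were run on recovered reads. Alternatives were other measures of spread, scalings, ranges of means, filters, pseudocounts, tools, a replicate block and each library left out. The limma fit and the rule for the list were run on simulated data. For the rule, the planted steady genes varied far less than the rest. That run could not test a cut among genes of similar CV.

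The genes, the comparisons and the rule for named genes were chosen with earlier results of these data known. Named were the 5 genes of lowest CV, the 2 on either side of the limit, the extremes of mean, of CV beyond counting error and of variance shares, the 2 largest stage rises and falls, the largest rise and fall in each line, and the 2 widest single-library deviations. MLOC_16093 and MLOC_59182 were added after their values were seen. No 2 libraries of a group agreed within sampling noise, since the chi-square per feature between them was at least 41.8. The sample titles number the replicates and do not say that equal numbers belong together. For control and line 5.8 at stage 49, the 3 same-numbered pairs had correlations of their deviations of 0.153, 0.393 and 0.4. In none of the 6 other comparisons were all 3 positive. The 3 values are not independent, and replicate 2 had the highest chi-square values in both of these groups. Whether the libraries were paired was not tested.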

Additional observations from a re-analysis of the deposited data

Results flagged for a closer look

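MLOC_72634, the first feature outside the list, drew attention because its stage change ran opposite ways in 2 genotypes with no overlap of libraries. Only the named genes were searched for this pattern. The share of all features that show it was not counted, so nothing is read from it. In the control it went from 2551, 2551 and 2501 normalized counts at stage 49 to 2453, 2477 and 2418 at stage 59. In line 17_10 it went from 2228, 2438 and 2538 to 2688, 2592 and 2759. The log2 changes were -0.05 and 0.16, a difference of 0.209, which was not tested. In line 5.8 the stages overlapped, at 2424, 2951 and 2324 and 2783, 2671 and 2306.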

How the results depend on the processing

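The median CV of the 200 genes stayed between 6.125% and 6.492% with any 1 library left out and was 6.501% under TMM scaling, against 6.382% as deposited and 8.207% when scaled to the library total. Lists by other rules shared 99 genes (median absolute deviation), 85 (library total), 41 and 59 (stage 49 or 59 alone), and 77, 97 and 44 (control, line 5.8 or line 17_10 alone) with the 200; leaving out 1 library kept 143 to 190. A list chosen without 1 genotype read a median CV of 7.282% over the 3 readings, 8.244% when chosen on 1 stage and read in the other, and 7.017% without line 5.8 stage 49 replicate 2, an alternative added after the data were seen.

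Counts of genes called between stages were 1, 3 and 0 in control, line 5.8 and line 17_10. They ran from 0 to 2, 0 to 5 and 0 to 1 with 1 library left out. Over all features those fits called 37.1% to 50.5%, 43.9% to 51% and 36.9% to 50.7%, in the same order. TMM scaling gave 6 and 7 in the lines, edgeR 2, 5 and 1, and DESeq2 6, 14 and 7. Fitting only the 2 groups compared called 0 in line 5.8, where it called 32.3% of all features in place of 50.5%. With a replicate block added, that fit called 0 in every genotype. The block changed no call of a line against the control, where 0 of the 200 genes were called. It took the calls over all features to 0 in these 4 comparisons. In line 5.8 at stage 49 the block raised the share with an unadjusted limma p below 0.05 from 5.32% to 19.7%, and in the others that share fell. For line 5.8 against control, DESeq2 gave 1 at stage 49, and leaving out 1 library gave 0 to 1 at stage 59. A pseudocount of 10 and no filter on low values left all these counts as they were. Depth limits the genes with low means most, where counting error alone reached a CV of 4.28%.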

Other observations

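Genes that are steady within 1 stage need not hold their level between stages. A list of 200 chosen on the 9 libraries of stage 49 alone had a median size of stage change of 0.22 on the log2 scale, averaged over the genotypes, against 0.39 for the features of its range. Of this list 46 genes (23%) stayed within 0.1, against 15% of its range, and the changes ran from -1.24 to 0.95, with 141 of 200 higher at stage 59. The list chosen on stage 59 alone had a median of 0.20 against 0.38, with 65 genes (32.5%) within 0.1, against 15.1% of its range, and 109 higher at stage 59. The shares of the ranges that were higher at stage 59 were not counted, so no lean is read from these directions. The spread that chose each list was within 1 stage, but the libraries of that stage also enter the change, so the values are given with no test. Only 16 genes were in both lists. When read in the stage that did not choose it, the stage 59 list had a median CV of 7.91% at stage 49, against 14.8% for its range, and 6.54% against 11.3% without line 5.8 stage 49 replicate 2. The stage 49 list had 8.35% at stage 59, against 14.8%.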
